A study of Mus musculus with 6 samples.

Results

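Protocadherins are the largest branch of the cadherin superfamily. All rows of the deposited tables whose gene symbol starts with Pcdh were taken as members, which gave 71 of 24346 symbols. They fell into the alpha cluster with 15 symbols, the beta cluster with 22, the gamma cluster with 22, and 12 non-clustered genes. Hippocampal total RNA of C57BL/6 mice aged 12 months had been sequenced in 6 libraries, 3 from wild-type mice (WT 1 to WT 3) and 3 from TonEBP+/- mice (TonEBP+/- 1 to TonEBP+/- 3). TonEBP is the transcription factor encoded by Nfat5, which binds the tonicity-responsive element (TonE), and the TonEBP+/- mice carry 1 wild-type allele by their label. Both genotypes were littermates from crosses of TonEBP+/- mice that had been backcrossed to C57BL/6J, and no other allele, agent or treatment is given. Neither the disrupted part of Nfat5 nor the number of animals in a library is given, so the p-values below measure only the spread between these libraries.

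Clustered protocadherins are neuronal cell-surface proteins that bind copies of themselves on neighbouring membranes. In the alpha and gamma clusters each variable exon, which encodes the outer part, the membrane span and a short inner stretch, has its own promoter and is spliced to a common set of constant exons, whereas beta genes are single exons with no constant part. Most variable exons are chosen at random in single neurons, through DNA methylation, CTCF and cohesin, while the C-type exons at the end of the alpha and gamma arrays are used more broadly. The combinations give each neuron a surface identity used for self-avoidance of dendrites and axons, for neuronal survival and for synapse formation. The non-clustered genes are single loci, mostly of the delta-1 and delta-2 classes, with inner tails that bind phosphatases or the actin-regulating WAVE complex.

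As TonEBP acts through short DNA sites, the promoters of members were searched for its binding core TGGAAA on both strands. RefSeq windows of 300 bases (GRCm38.p6, 250 bases before to 50 after the start) were matched for 9 non-clustered genes with 10 windows: Pcdh7, Pcdh8, Pcdh9, Pcdh10, Pcdh15, Pcdh17, Pcdh18, Pcdh19 and Pcdh20. The core was found in 1 of the 10 windows (10%), against 21.4% of all 32851 windows and 16.2% of the 12773 windows of genes tested below. That window belongs to Pcdh8, an activity-induced cell adhesion gene, and its match also has the letters of the longer TonE consensus, as do 4.96% of all windows. The stretch lies upstream of the annotated start at chr14:79771423-79771452 (GRCm38.p6, minus strand), outside the transcript, and its capitals mark the reverse complement of the core, which lies 128 bases before the start.
Pcdh8: ctcctctaagccTTTCCAcattaaagggat
The match is a description of letters, and its use by the factor was not tested. The level of Pcdh8 in the libraries is given with the delta-2 genes below.

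Levels are given in FPKM, that is fragments per kilobase corrected for the number of fragments in the library. The deposited values are log2 of a level plus 1 and name no unit; FPKM was read from the values. The step size of low values gave about 8000000 to 12450000 fragments per library, an estimate and not a deposited count. Markers of hippocampal fields were present in all libraries, with summed levels of 100.8 to 132.4 FPKM for CA1, 185.2 to 332.2 for CA3 and CA2, and 32.4 to 43.9 for dentate granule cells. Nfat5 was at 10.5, 8.39 and 9.72 FPKM in WT 1 to WT 3 and at 8.25, 9.31 and 8.42 in TonEBP+/- 1 to 3. These ranges overlapped, with a log2 difference of -0.12 (SE 0.0963, exact permutation p = 0.3). As a value over the whole gene may include transcripts of the disrupted allele, it does not check the genotype labels. Thalamus and habenula markers (9 of 9 measured) summed to 187.8 to 206.1 FPKM in wild type and TonEBP+/- 1 but to 117.8 and 113.3 FPKM in TonEBP+/- 2 and TonEBP+/- 3, and choroid plexus markers (5 of 5) ranged from 96.2 to 3432 FPKM over the libraries. WT 2 and TonEBP+/- 2 listed 6210 and 6917 genes at exactly 0, and each of the others 4262. The others also listed 2199 to 2609 genes at tiny values above 0, against 14 and 3 in WT 2 and TonEBP+/- 2. The counts at exactly 0 therefore do not compare how many genes were detected. In bulk tissue, fewer cells of a type and less RNA per cell cannot be told apart, and the part of these features in the values below was not tested.

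No protocadherin gene passed the test between TonEBP+/- and wild type. Of the 71 members, 65 reached 1 FPKM in at least 3 libraries and were tested together with all other such genes, and 0 of 65 passed a limma adjusted p of 0.05. The same held for 0 of all 13122 genes tested (0%), with a smallest limma adjusted p of 0.383. At an unadjusted limma p under 0.05 there were 1 of 65 members, Pcdhb9, and 484 of all genes (3.69%). The difference was above 0 in 34 members and below 0 in 31, which is 52.3% above 0 against 50% of all genes. The median log2 difference of the tested members was 0.00, the range was -0.25 to 0.26, and the median standard error was 0.122. That leaves an interval around each gene: the 95% interval excluded a level at 50% of wild type in 65 of 65 tested members and a doubling in 64 of 65. The exception was Pcdhgb8, annotated by RefSeq as a transcribed pseudogene, at 0.956 ± 0.214 FPKM in wild type and 1.35 ± 0.275 in TonEBP+/- (SD, n = 3 each).

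**Figure D1:**
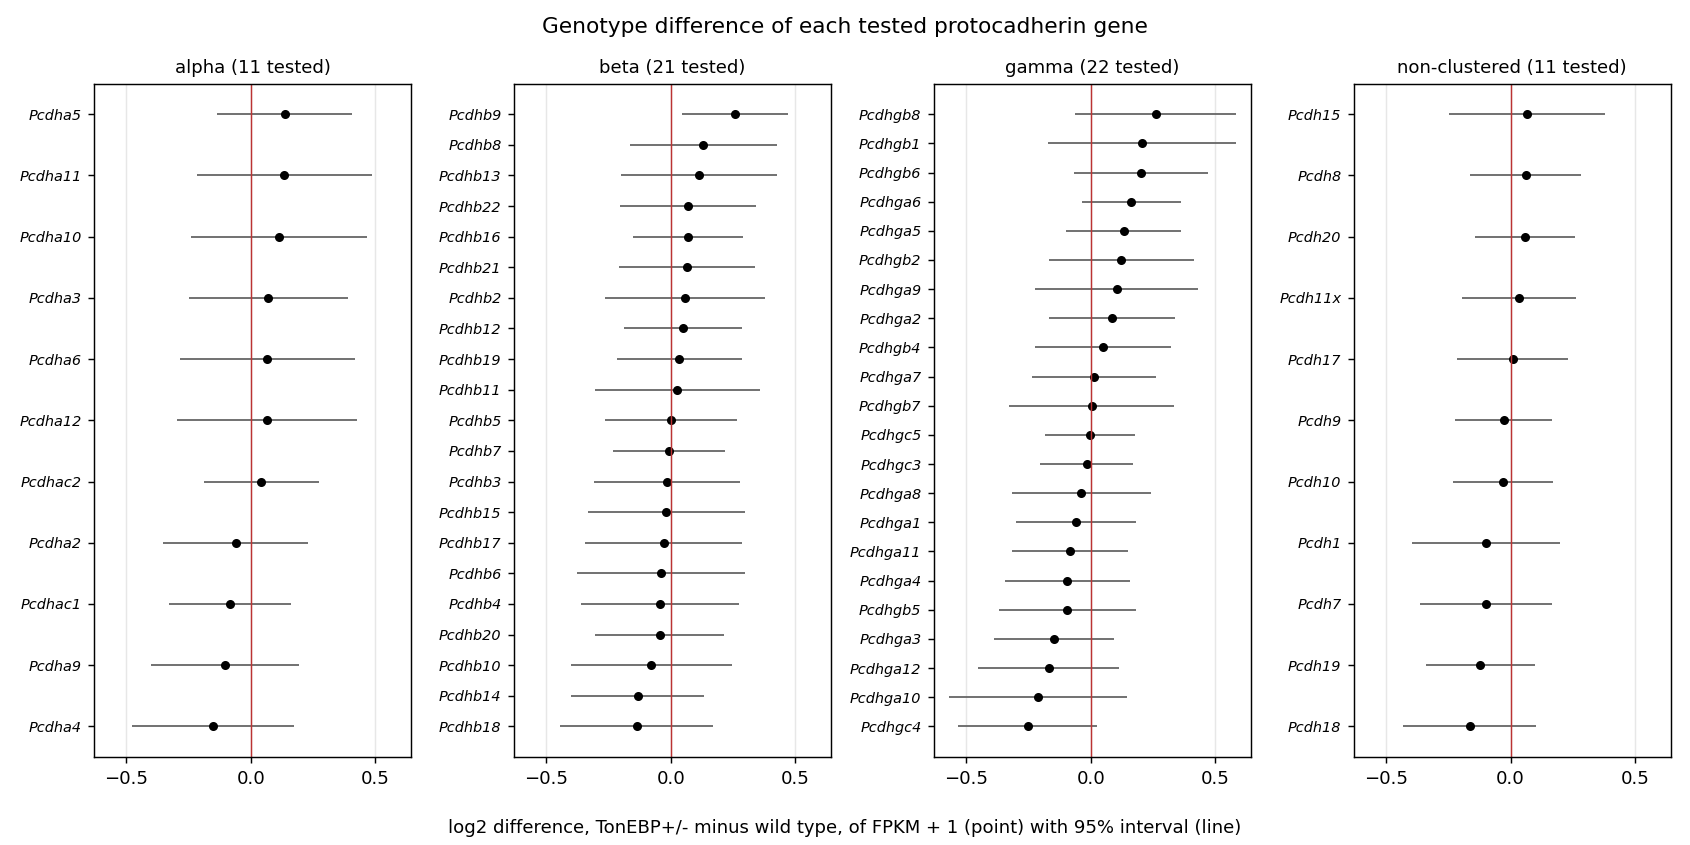
Log2 difference between TonEBP+/- and wild type for the 65 tested protocadherin genes, by group, with points for the estimates and bars for the 95% intervals from limma. The estimates lie between -0.25 and 0.26, and the interval of 1 gene, Pcdhb9, does not include 0 before adjustment.

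The genotypes did not overlap in 4 of the 65 tested members (6.15%), against 8.52% of all genes tested. Pcdhb9 and Pcdhga6 were higher in all 3 TonEBP+/- libraries than in all 3 wild-type libraries (4.13% of all genes lay that way), and Pcdhgc4 and Pcdh18 were lower (4.39%). For none of the 4 did the limma adjusted p fall below 1, and their exact permutation p of 0.1 is the smallest that 3 libraries against 3 can give. The share among members was thus no larger than the background, and these 4 genes are described below with their groups.

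The alpha cluster lies on chromosome 18 (GRCm38), where its 15 symbols start between 36930285 (Pcdha1) and 37143678 (Pcdhac2). They include 12 single alpha exons, the fused model Pcdha7-g and the C-type genes Pcdhac1 and Pcdhac2. The summed level of the 15 symbols was 28.6, 26.2 and 33.2 FPKM in WT 1 to WT 3 and 27.2, 31.9 and 29.5 FPKM in TonEBP+/- 1 to 3. The TonEBP+/- values lay inside the wild-type range, and the ratio of their means was 1.01 (29.3 ± 3.59 against 29.5 ± 2.37, SD, n = 3 each). The highest level was that of a C-type gene: Pcdhac2, which is needed for the spacing of serotonergic axons, was at 10.3, 9.03 and 11.2 FPKM in wild type and 9.26, 11.4 and 10.8 in TonEBP+/-. It made up 34.7 ± 1.23% of the alpha sum in wild type and 35.5 ± 1.34% in TonEBP+/-, and its log2 difference was 0.04 (SE 0.103). The other C-type gene, Pcdhac1, was at 2.22, 2.19 and 2.32 FPKM in wild type and 1.92, 2.31 and 1.96 in TonEBP+/-. Its ranges overlapped through TonEBP+/- 2, with a log2 difference of -0.08 (SE 0.110). The remaining 13 alpha symbols had means over the 6 libraries of 0.452 to 2.66 FPKM, with a median of 1.20.

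Among those alternate alpha exons, which encode the variable ectodomains, Pcdha12 had the highest mean. Its values were 1.88, 2.39 and 3.55 FPKM in wild type and 2.44, 2.83 and 2.86 in TonEBP+/-, so that WT 1 was lowest and WT 3 highest of all 6 (log2 difference 0.06, SE 0.162). Pcdha5 and Pcdha4 had the smallest p in the cluster. Pcdha5 was at 1.53, 1.798 and 1.51 FPKM in wild type and 2.03, 1.99 and 1.60 in TonEBP+/-, with WT 2 above TonEBP+/- 3 (log2 difference 0.14, SE 0.121, exact permutation p = 0.2). Pcdha4 was at 1.35, 1.40 and 2.10 FPKM in wild type and 1.13, 1.52 and 1.39 in TonEBP+/-, and its lower mean in TonEBP+/- came with a single high library, WT 3 (log2 difference -0.15, SE 0.146, and -0.02 without WT 3). Of the 11 tested alpha genes 7 lay above 0 and 4 below, with a median log2 difference of 0.06 against 0.00 over all genes, and 0 passed the test. Pcdha1, Pcdha7, Pcdha7-g and Pcdha8 were not tested because of their low levels. Pcdha1, chosen after its values were seen, was at 0.732, 0.673 and 0.581 FPKM in wild type and 0.488, 0.398 and 0.338 in TonEBP+/-. Its groups did not overlap, and with the filter lowered to 0.1 FPKM its log2 difference was -0.24 (SE 0.1004) with a limma adjusted p of 1.

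The alpha and gamma values rest on a split of shared reads. Members of a cluster end in the same constant exons, so a fragment from those exons fits every gene of the cluster. In the GENCODE M21 models of the transcripts, exon sequence shared with another gene made up 48.6% to 98.3% of an alpha transcript (median 53.6%, 14 models) and 41.7% to 45.5% of a gamma transcript (21 models), with 2860 and 2116 to 2119 shared bases in most. Beta genes shared no exon bases except for Pcdhb21 and Pcdhb22, whose models overlap by 455 bases, and the non-clustered genes shared none. By sequence alone, the share of all 50-base stretches of a transcript that also occur in another gene had a median of 60.6% over alpha, 45.001% over gamma and 4.46% over beta genes, and was 0 in the non-clustered genes. How the program behind the deposited values divided such fragments is not stated in the sources used here. Levels of single alpha and gamma genes are therefore uncertain beyond the spread between libraries.

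Pcdha7 traded its level with a second symbol from library to library. The second symbol, Pcdha7-g, is one that RefSeq carries as Gm38667 and that runs from 36973802, beside the start of Pcdha7, to the end of the gamma cluster at 37841873. Pcdha7 was at 1.10, 0.380 and 0.648 FPKM in WT 1 to WT 3 and at 4.8e-05, 1.78 and 0.604 in TonEBP+/- 1 to 3. Pcdha7-g took the opposite course, at 0.465, 0.773 and 0.954 FPKM in wild type and 1.01, 0 and 0.871 in TonEBP+/-. In TonEBP+/- 1 nearly all of the pair was listed under Pcdha7-g, and in TonEBP+/- 2 all of it under Pcdha7. The coefficient of variation over the 6 libraries was 82.3% for Pcdha7 and 56.6% for Pcdha7-g but 20.4% for their sum, which was 1.44 ± 0.249 FPKM in wild type and 1.42 ± 0.387 in TonEBP+/- (SD, n = 3 each). Similar fused models stand beside Pcdha4 (Gm37013) and Pcdha6 (Gm38666). Of the fused symbols only Gm37013 was matched to a transcript model, so a shared variable exon was measured for Pcdha4 alone. The shared part of Pcdha6 (53.3%) and Pcdha7 (53.6%) thus counts constant exons only, against 98.3% for Pcdha4. In these pairs the coefficients of variation were 22.3% and 33.4% for Pcdha4 and Gm37013 with 11.5% for the sum. For Pcdha6 and Gm38666 they were 24.4% and 38.3% with 17.1% for the sum. The sum of unrelated values can also have a lower coefficient of variation, so these figures alone do not show a trade of reads. With each pair added together, the log2 differences were -0.07 for Pcdha4 (SE 0.120), 0.15 for Pcdha6 (SE 0.137) and -0.02 for Pcdha7 (SE 0.153), each with a limma adjusted p of 1.

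**Figure D2:**
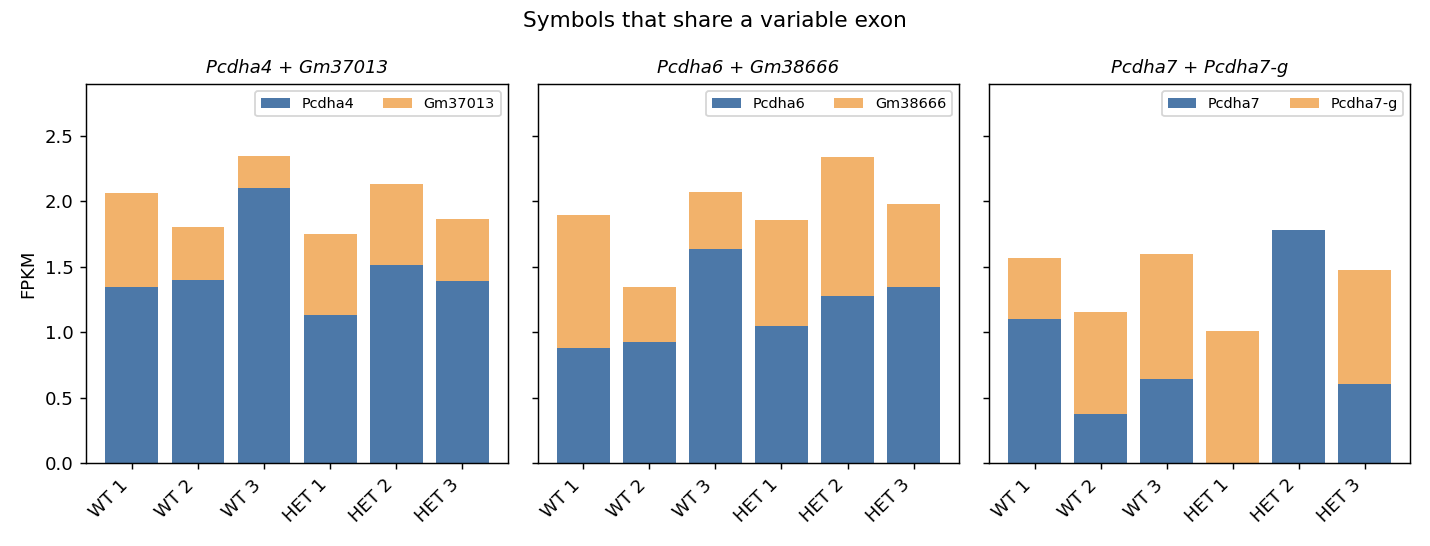
Level in FPKM of each of 3 alpha genes, of the fused model that starts beside it, and of the sum of both, in each of the 6 libraries. By coefficient of variation, the sums vary less over the libraries than either symbol, most of all for Pcdha7. Pcdha7 is near 0 in TonEBP+/- 1, while Pcdha7-g is at 0 in TonEBP+/- 2.

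The beta cluster lies between the others on chromosome 18, from 37264998 to 37521419 (GRCm38). Its genes have no constant exons, so the inner tail common to alpha and gamma proteins is missing from beta proteins. The summed level of the 22 genes was 55.4, 60.9 and 63.8 FPKM in wild type and 62.8, 60.8 and 60.8 in TonEBP+/-. WT 1 was the lowest library and WT 3 the highest, and the means were 60.1 ± 4.26 and 61.5 ± 1.12 FPKM (SD, n = 3 each, ratio 1.02). Pcdhb9, a single-exon gene at 37400855 to 37403909, was the most abundant beta gene and the member with the smallest p of the family. It was at 6.01, 6.19 and 6.80 FPKM in WT 1 to WT 3 and 7.72, 7.06 and 8.59 in TonEBP+/- 1 to 3. All TonEBP+/- values lay above all wild-type values, and the means were 6.33 ± 0.415 and 7.79 ± 0.767 FPKM (ratio 1.23). The log2 difference was 0.26 (SE 0.0950, 95% interval 0.05 to 0.47, unadjusted limma p = 0.0216, limma adjusted p = 1, exact permutation p = 0.1). It was 0.19 to 0.32 with any 1 library left out. As a share of the beta sum Pcdhb9 was 10.6 ± 0.353% in wild type and 12.7 ± 1.30% in TonEBP+/-.

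The next most abundant beta gene was Pcdhb14, at 5.07, 6.34 and 7.19 FPKM in wild type and 5.46, 5.15 and 5.97 in TonEBP+/-. Here the direction was the opposite one and the ranges overlapped, with WT 1 the lowest library of all (log2 difference -0.13, SE 0.119). It was -0.25 without WT 1 and -0.03 without WT 3. Pcdhb9 and Pcdhb14 are neighbours in level within the cluster, and their differences lay in opposite directions. The 22 beta genes had means from 0.203 FPKM (Pcdhb1) to 7.06 FPKM (Pcdhb9) and a median of 2.14. Of the 21 tested, 11 lay above 0 and 10 below, with a median log2 difference of 0.00 and 0 past the test. Pcdhb1, which stands apart from the other beta genes at the upstream end of the array, was not tested. Its values were 0.258, 0.0909 and 0.367 FPKM in wild type and 0.149, 0.135 and 0.218 in TonEBP+/-, which is about 5.06 fragments in a library at the median.

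The gamma cluster extends from 37661775 to 37841873 and was the most abundant of the 3 clusters. Its 22 genes summed to 116.5, 104.6 and 116.0 FPKM in wild type and 114.1, 110.9 and 110.4 in TonEBP+/-. The TonEBP+/- values all lay inside the wild-type range, and the means were 112.4 ± 6.70 and 111.8 ± 2.02 FPKM (SD, n = 3 each, ratio 0.995). Its 3 C-type genes held 38.6 ± 1.43% of the sum in wild type and 37.9 ± 1.23% in TonEBP+/-, and in the alpha cluster the C-type share was 42.4 ± 1.66% and 42.5 ± 1.20%. The C-type genes thus carried a similar part of both clusters in both genotypes. Pcdhgc3, a gene with a role in dendrite branching, was the most abundant clustered protocadherin at 26.8, 24.7 and 25.02 FPKM in wild type and 28.2, 23.6 and 23.9 in TonEBP+/-. The TonEBP+/- libraries held both the highest and the lowest value, and the log2 difference was -0.02 (SE 0.0837). Pcdhgc5 was at 14.3, 13.7 and 14.7 FPKM in wild type and 13.4, 13.8 and 15.6 in TonEBP+/-, again with both extremes in TonEBP+/- (log2 difference -0.00, SE 0.0807).

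Pcdhgc4, the gamma isoform needed for the survival of interneurons, was the least abundant of the gamma C-type genes and the gamma gene with the smallest p. Its values were 3.82, 3.55 and 3.40 FPKM in WT 1 to WT 3 and 2.25, 3.10 and 3.27 in TonEBP+/- 1 to 3. All wild-type libraries lay above all TonEBP+/- libraries, with a gap of 3.27 to 3.40 FPKM between the nearest values and TonEBP+/- 1 well below the rest. The means were 3.59 ± 0.215 and 2.87 ± 0.545 FPKM (ratio 0.801), and the log2 difference was -0.25 (SE 0.125, 95% interval -0.53 to 0.03, unadjusted limma p = 0.0708, limma adjusted p = 1, exact permutation p = 0.1). It was -0.13 without TonEBP+/- 1. Inhibitory neuron markers (6 of 6 measured) were also lowest in that library. Their sum was 235.9 to 242.8 FPKM in wild type and 176.8, 223.4 and 194.7 in TonEBP+/- 1 to 3. By median log2 deviation from the mean of each marker, the values were 0.16, -0.14 and 0.13, then -0.29, 0.14 and -0.11. WT 2 was thus low and TonEBP+/- 2 high by that measure, unlike Pcdhgc4. The part of these markers in the value of Pcdhgc4 was not tested. Pcdhga6, an alternate gamma exon, lay the other way, at 5.36, 4.95 and 5.62 FPKM in wild type and 6.38, 5.81 and 5.99 in TonEBP+/-. Its groups did not overlap either (log2 difference 0.16, SE 0.0894, unadjusted limma p = 0.0988, limma adjusted p = 1, exact permutation p = 0.1).

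The 19 gamma genes outside the C-type ranged in mean from 1.15 FPKM (Pcdhgb8) to 9.55 FPKM (Pcdhga11) with a median of 3.25, above the medians of the beta and alternate alpha exons. All 22 were tested, 11 lay above 0 and 11 below, the median log2 difference was 0.00, and 0 passed the test. The order of exon use within each cluster was nearly the same in both genotypes. Across genes, Spearman's rho between the wild-type and TonEBP+/- means was 0.989 over the 15 alpha symbols, 0.965 over the 22 beta genes and 0.938 over the 22 gamma genes. Single libraries of the same genotype had rho of 0.796 to 0.896, 0.822 to 0.959 and 0.842 to 0.936, and libraries of different genotype 0.796 to 0.929, 0.863 to 0.945 and 0.818 to 0.954. The ranges within and between genotypes thus covered each other in large part. These correlations are a description across genes, which share transcript lengths and constant exons and are not independent replicates. Exon choice in single neurons cannot be read from bulk tissue.

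The non-clustered genes had the least shared sequence of the family and, at the median gene, the smallest counting error. None shared exon bases or a 50-base stretch with another gene, and their levels stood on about 763 fragments per gene and library at the median, against 71.6 for alpha, 73.5 for beta and 160.3 for gamma genes. Counting error alone would then give a standard deviation of 3.74% for the median non-clustered gene and 11.8%, 11.7% and 7.90% for the 3 clusters, which covers counting error only. The 12 genes summed to 173.9, 159.4 and 192.1 FPKM in wild type and 161.0, 182.3 and 172.6 in TonEBP+/-. The wild-type libraries spanned the whole TonEBP+/- range, with means of 175.1 ± 16.4 and 172.0 ± 10.7 FPKM (SD, n = 3 each, ratio 0.982). Of the 11 tested, 5 lay above 0 and 6 below, the median log2 difference was -0.03, and 0 passed the test. Pcdh12, an endothelial member known as VE-cadherin-2, was the exception in level at 0.0393 to 0.108 FPKM, or about 3.66 fragments, and was not tested, while endothelial markers (6 of 6) summed to 29.4 to 43.2 FPKM.

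Among the delta-1 genes, which have a tail motif that binds protein phosphatase 1, Pcdh9 was the most abundant protocadherin of the whole family. Pcdh9 (chromosome 14, 93013700 to 93892834) was at 50.8, 49.6 and 59.99 FPKM in wild type and 50.3, 56.0 and 50.5 in TonEBP+/-. The means of 53.5 ± 5.70 and 52.3 ± 3.21 FPKM differed by less than either spread (log2 difference -0.03, SE 0.0864, 95% interval -0.22 to 0.16). Pcdh7 (chromosome 5, 57716145 to 58133236), which binds the regulatory protein SET, was at 20.04, 15.2 and 18.7 FPKM in wild type and 14.4, 18.6 and 17.1 in TonEBP+/- (log2 difference -0.10, SE 0.119, and -0.00 without TonEBP+/- 1). Pcdh1 (chromosome 18, 38185914 to 38212048), an adhesion molecule also found in airway epithelium, was at 14.9, 10.9 and 16.2 FPKM in wild type and 11.9, 14.0 and 12.7 in TonEBP+/- (log2 difference -0.10, SE 0.132). Both genes had low values in WT 2 and TonEBP+/- 1 and high ones in WT 1 and WT 3, so the libraries of a genotype differed more than the genotypes. The X-linked Pcdh11x (120290238 to 120910622) was lower, at 4.55, 3.68 and 3.78 FPKM in wild type and 3.99, 4.19 and 4.16 in TonEBP+/- (log2 difference 0.04, SE 0.103).

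The delta-2 genes include several whose tails bind the WAVE complex. Pcdh10 (chromosome 3, 45378398 to 45434579), which takes part in activity-dependent synapse elimination, was at 21.2, 19.2 and 22.4 FPKM in wild type and 19.0, 22.7 and 19.7 in TonEBP+/- (log2 difference -0.03, SE 0.0891). Pcdh17 (chromosome 14, 84443563 to 84537565), known from presynaptic assembly in corticobasal circuits, was at 10.3, 8.56 and 10.05 FPKM in wild type and 8.89, 10.9 and 9.35 in TonEBP+/- (log2 difference 0.01, SE 0.1003). As for Pcdh7, WT 2 and TonEBP+/- 1 were the lowest libraries for both. Pcdh19 (X chromosome, 133582860 to 133689044), mutated in a form of human epilepsy, was at 10.6, 9.29 and 10.4 FPKM in wild type and 8.07, 10.2 and 9.36 in TonEBP+/-. Its lowest library was TonEBP+/- 1, and the ranges overlapped (log2 difference -0.12, SE 0.0980).

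Pcdh8 (chromosome 14, 79766772 to 79771312), also called arcadlin, takes part in the activity-dependent uptake of N-cadherin at synapses and is the gene whose promoter holds the core shown above. It was at 7.55, 6.66 and 8.504 FPKM in wild type and 7.38, 7.99 and 8.37 in TonEBP+/-, all TonEBP+/- values within the wild-type range (log2 difference 0.06, SE 0.0996, 95% interval -0.16 to 0.28). Pcdh18 (chromosome 3, 49743291 to 49757383), a binding partner of the adaptor Dab1, was the least abundant delta-2 gene. It was at 1.36, 1.43 and 1.56 FPKM in wild type and 1.10, 1.12 and 1.33 in TonEBP+/-, so that the groups did not overlap by a gap of 1.33 to 1.36 FPKM. The means were 1.45 ± 0.0995 and 1.19 ± 0.125 FPKM (ratio 0.819), and the log2 difference was -0.16 (SE 0.119, limma adjusted p = 1). On the log2(FPKM + 1) scale the change of such a low gene is understated.

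Of the remaining non-clustered genes, Pcdh20 (chromosome 14, 88464743 to 88471396) was second only to Pcdh9 in level. It was at 31.5, 33.4 and 38.9 FPKM in wild type and 34.4, 34.8 and 38.8 in TonEBP+/-, with the lowest and the highest library both wild type (log2 difference 0.06, SE 0.0899). Pcdh9 and Pcdh20 together dominated the group: Pcdh9 held 30.5 ± 1.13% of the non-clustered sum in wild type and 30.4 ± 1.04% in TonEBP+/-, and Pcdh20 19.8 ± 1.501% and 20.98 ± 1.75%. Pcdh15 (chromosome 10, 73096277 to 74649831), the tip-link protein of hair cells, was near the detection filter at 1.10, 1.44 and 1.48 FPKM in wild type and 1.33, 1.83 and 1.21 in TonEBP+/- (log2 difference 0.07, SE 0.140). Over all 12 genes, the order of levels was nearly fixed, with Spearman's rho of 0.986 to 1 between any pair of libraries. Within that order the values over the 6 libraries overlapped between Pcdh10 and Pcdh7, between Pcdh7 and Pcdh1, between Pcdh17 and Pcdh19, between Pcdh19 and Pcdh8, and between Pcdh15 and Pcdh18.

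**Figure D3:**
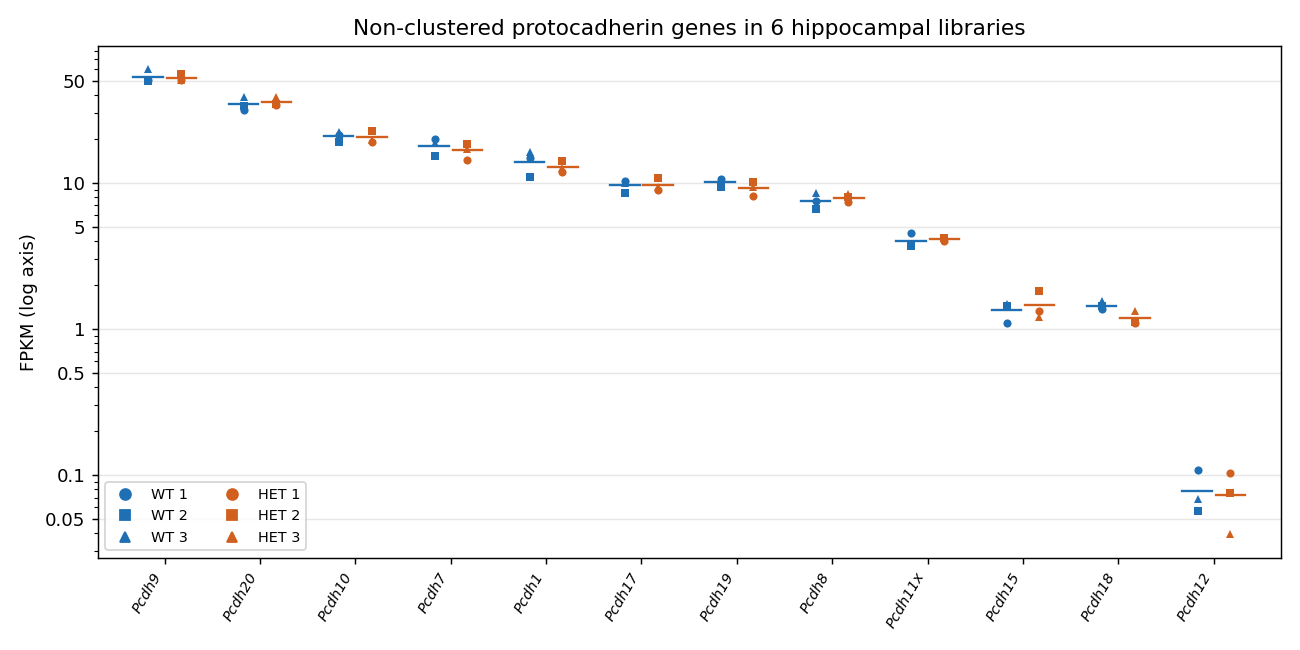
Level in FPKM (log axis) of the 12 non-clustered protocadherin genes in each of the 6 libraries, 1 point per library, ordered by mean level and coloured by genotype. Levels run from about 0.0754 FPKM for Pcdh12 to 52.9 FPKM for Pcdh9, and the groups lie apart, by a narrow gap, only for Pcdh18.

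The larger differences were between libraries of one genotype. The median log2 deviation of the 11 tested non-clustered genes from their mean over the 6 libraries was 0.03, -0.10 and 0.12 for the 3 wild-type libraries, then -0.10, 0.08 and -0.03 for TonEBP+/- 1 to 3. In TonEBP+/- 1, 11 of the 11 genes lay below their mean, and in WT 2, 9 of 11, whereas in WT 3 and TonEBP+/- 2 only 1 and 2 of 11 did. The 11 tested alpha genes had the same sign in 5 of the 6 libraries and the opposite one in WT 1, at -0.07, -0.09 and 0.11 in wild type and -0.08, 0.07 and -0.04 in TonEBP+/-. The median of the gamma genes had the sign of the non-clustered genes in all 6 libraries. It was 0.03, -0.07 and 0.02 in wild type and -0.02, 0.02 and -0.04 in TonEBP+/-. Beta genes did not follow this pattern (-0.06, 0.01, 0.06, then 0.06, -0.03 and -0.03). Each pattern crossed the genotypes, with 1 or more libraries of both genotypes on either side. The 25 tested genes among 48 other cadherins had deviations of 0.02, -0.13 and 0.09, then -0.06, 0.11 and -0.06, and inhibitory neuron markers 0.16, -0.14 and 0.13, then -0.29, 0.14 and -0.11. Tested genes with transcripts of 5 kb or more (2628, protocadherins left out) had 0.02, -0.05 and 0.04, then -0.02, 0.01 and -0.00. Those with transcripts under 2 kb (3307) had the opposite sign in each library, at -0.03, 0.06 and -0.04, then 0.01, -0.03 and 0.04. The median of all 13122 genes stayed within 0.01 of 0. Endothelial markers had -0.005, -0.17 and 0.12, then -0.04, 0.22 and -0.13. The summed levels of the inhibitory neuron markers did not follow their medians. By sum WT 2 was the highest library at 242.8 FPKM, and TonEBP+/- 2 at 223.4 FPKM lay below every wild-type library. The part of inhibitory neurons, of endothelium or of transcript length in the protocadherin values was not tested.

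**Figure D4:**
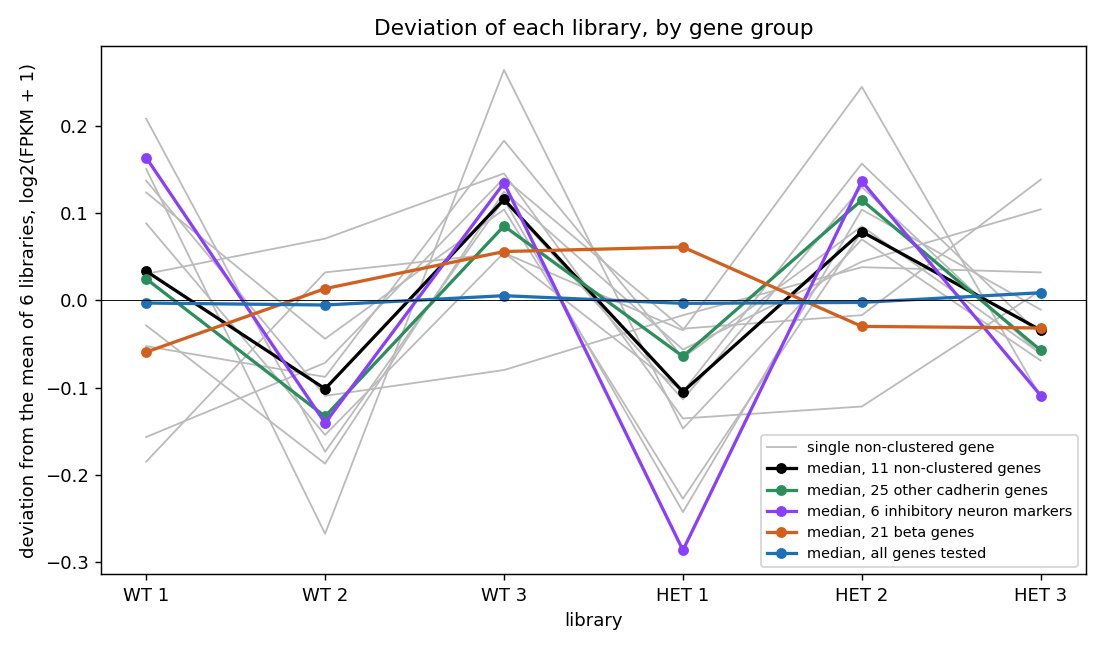
Median log2 deviation of gene sets from the mean over the 6 libraries, per library, for non-clustered genes, beta genes and comparison sets. Grey lines show single non-clustered genes. The medians of the non-clustered genes, other cadherins and inhibitory neuron markers are low in WT 2 and TonEBP+/- 1. The same medians are high in WT 3 and TonEBP+/- 2, and all genes together stay near 0.

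The balance of directions among the non-clustered genes turned on these libraries. With WT 2 and TonEBP+/- 2 left out, a choice made after seeing the data, the median log2 difference was -0.14 for the non-clustered genes, and 1 of the 11 (9.09%) lay above 0. In the alpha cluster it was -0.05 with 33.3% of 9 tested genes above 0. For both groups WT 2 was the lowest wild-type library (-0.10 and -0.09) and TonEBP+/- 2 the highest TonEBP+/- library (0.08 and 0.07). Leaving out that pair therefore lowers the difference by construction, and no conclusion is drawn from it. Leaving out a single library moved the share of non-clustered genes above 0 from 45.5% to between 18.2% (without WT 2) and 72.7% (without WT 3). In each of these settings 0 protocadherin genes passed a limma adjusted p of 0.05.

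Genes that act on or with protocadherins were measured in the same fit. Of 29 regulators of the clusters (CTCF, cohesin, DNA methylation and silencing genes), 28 were in the files and 26 tested. Among them 14 lay above 0 and 12 below, with a median log2 difference of 0.01 against 0.00 over all genes and 0 past the test. The smallest p belonged to Rad21, a cohesin subunit, at 37.6, 36.8 and 35.9 FPKM in wild type and 32.1, 33.8 and 33.1 in TonEBP+/-. All wild-type libraries lay above all TonEBP+/- libraries (log2 difference -0.15, SE 0.0634, unadjusted limma p = 0.0390, limma adjusted p = 1, exact permutation p = 0.1). Tet3, which oxidises methylated cytosine, was at 4.69, 3.99 and 4.92 FPKM in wild type and 4.94, 5.23 and 5.04 in TonEBP+/-. All TonEBP+/- libraries lay above all wild-type libraries, by a gap of 4.92 to 4.94 FPKM (log2 difference 0.14, SE 0.0987, exact permutation p = 0.1). In all, 3 of the 26 did not overlap, 2 higher and 1 lower, where 8.52% of all genes tested did not (4.13% higher, 4.39% lower). Of 25 intracellular partners (kinases, the WAVE complex and adaptors), 24 were tested, 9 lay above 0 and 15 below, with a median of -0.01 and 0 past the test. Wasf1, the neuronal WAVE subunit, was at 39.3, 26.5 and 32.6 FPKM in wild type and 25.9, 28.3 and 28.0 in TonEBP+/-, with WT 2 inside the TonEBP+/- range (log2 difference -0.23, SE 0.125). Dab1, the Reelin adaptor, was at 34.1, 36.1 and 35.7 FPKM in wild type and 37.5, 38.1 and 38.1 in TonEBP+/-, without overlap (log2 difference 0.10, SE 0.0625, exact permutation p = 0.1). In all, 3 of the 24 partners did not overlap, 2 higher and 1 lower, beside the same 8.52% of all genes. With so few genes in each list, these counts are a description only.

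Other cadherin superfamily genes, the classical cadherins and their relatives, were in a list of 50 genes with 48 in the files and 25 tested. Of these 14 lay above 0 and 11 below, with a median log2 difference of 0.01 and 0 past the test. Cdh7, a type II cadherin, was at 5.20, 5.57 and 4.76 FPKM in wild type and 4.44, 4.32 and 3.97 in TonEBP+/-, without overlap (log2 difference -0.24, SE 0.0962, unadjusted limma p = 0.0348, limma adjusted p = 1, exact permutation p = 0.1). Cdh6, of the same type, was at 2.57, 1.69 and 2.31 FPKM in wild type and 2.16, 1.34 and 1.07 in TonEBP+/- (log2 difference -0.35, SE 0.176). Its values in TonEBP+/- 2 and TonEBP+/- 3, the libraries with low thalamus markers, were the lowest, and the part of those markers was not tested. Of 10 partners of Pcdh15 in the hair cell tip link, 5 were tested, 1 lay above 0 and 4 below, and the median was -0.18 with 0 past the test. Tmie, a subunit of the mechanotransduction channel, had a log2 difference of -0.39 (SE 0.194) with one low library, TonEBP+/- 2, at 0.817 FPKM against 1.75 to 2.60 in the others. Whrn, a scaffold protein, was at 1.95 to 2.04 FPKM in wild type and 1.54 to 1.71 in TonEBP+/-, without overlap (log2 difference -0.20, SE 0.109).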

How the data were processed

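The authors deposited 1 table per library with 24346 symbols and values on a log2 scale. The library kit kept strand per the labels' protocols, and TopHat and mm10 are named as aligner and build by the submitters' processing notes. Neither version nor annotation, quantifying program or use of strand is stated in the sources used here. The unit was read from the values. Taken out of log2 and less 1, they resembled FPKM, with 70.1% to 76.0% of low values no more than 0.15 of a step from a whole number of steps.

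The 13122 genes with at least 1 FPKM in 3 or more libraries were tested with limma 3.58.1 under R 4.3.3 (genotype only, trend and robust options) on the deposited log2 values. P-values were adjusted over these genes by Benjamini-Hochberg, and 0.05 was the threshold. Differences are on the log2(FPKM + 1) scale and understate changes of low genes. Permutation tests were exact and two-sided. The limma procedure was tested on simulated data, where it recovered 8.2% of log2 changes of 0.3, 41.3% of 0.5 and 85.8% of 1. The estimates of all tested members were smaller in size than 0.3, so true changes of that size would mostly not be called.

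The members and lists were chosen with earlier results of these data known. Named by rule were members past the threshold, the 2 most abundant and the 2 of smallest p in each cluster, all C-type and non-clustered genes, the 2 of smallest p in each list, and Nfat5. Shared exons came from GENCODE M21 models, matched for 69 of 71 members through RefSeq, and positions and promoters from RefSeq GRCm38. The row for Pcdha10 was matched by its RefSeq accession, because GENCODE names that gene differently. Same-numbered libraries of the genotypes did not deviate together (correlations -0.208, -0.247 and -0.157 across genes), so the numbers were not used as pairs. Alternatives were other scalings, filters and pseudocounts, no robust option, a replicate block and each library left out. Added after seeing the data were a fit without WT 2 and TonEBP+/- 2 and the sums of alpha genes with their fused models. Plots used matplotlib 3.10.9 and Python 3.11.15.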

Additional observations from a re-analysis of the deposited data

How the results depend on the processing

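The number of protocadherin genes past a limma adjusted p of 0.05 was 0 in every alternative run. Over all genes it was 8 without TonEBP+/- 1, 1 each without WT 1, WT 2 or TonEBP+/- 3, and 0 in the other alternatives. With a replicate block the numbers were likewise 0 of 65 members and 0 of all genes, and the block changed no call. The correlation of same-numbered libraries was negative for all 3 numbers, and what the numbers mark is not stated in the sources used here. Of the 344 values of the 22 named and tested members over the alternatives, 317 kept their direction, 0 passed an adjusted p of 0.05 and the smallest adjusted p was 0.439. In 10 members the direction was kept throughout.

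Medians and shares of small groups depended on single libraries and filters. With 1 library left out, the share of tested members above 0 was 40% to 80% in alpha, 33.33% to 71.43% in beta and 18.18% to 72.73% in the non-clustered genes, and the median of the Pcdh15 partners was -0.2141 to -0.04557. Members without overlap then numbered 8 to 13, which is 12.3% to 20.3% against 15.4% to 21.6% of all genes, as fewer libraries overlap less often by construction. With a mean of at least 5 FPKM required, 17 members were left, with 2 not overlapping (11.8%, against 8.26% of all genes). The share above 0 was then 100% in alpha (1 tested), 33.33% in beta (3) and 20% in gamma (5). With no filter the median of the Pcdh15 partners was -0.0244.

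Without WT 2 and TonEBP+/- 2, medians were -0.04914 in alpha, -0.1436 in the non-clustered genes and -0.1035 in the other cadherins. These sets had their lowest wild-type median in WT 2 and their highest TonEBP+/- median in TonEBP+/- 2, so the choice itself lowers the difference. The share above 0 was 33.33% in alpha and 9.091% in the non-clustered genes, and 22 of 63 members did not overlap (34.9%, against 39.7% of all genes). Log2 differences that changed sign were -0.09098 for Pcdhac2, 0.006505 for Pcdhgc3, -0.02114 for Pcdh11x, -0.007266 for Pcdh15, -0.1436 for Pcdh17 and -0.02392 for Pcdh8. Median scaling gave -0.005691 for Pcdh17. With 1 library left out, sign changes lay within -0.03292 to 0.1225 for Pcdhac2, -0.08564 to 0.2449 for Pcdha12, -0.09549 to 0.02885 for Pcdhgc3, -0.06723 to 0.03821 for Pcdhgc5, -0.2558 to 0.009762 for Pcdh1 and -0.1035 to 0.01865 for Pcdh10. They lay within -0.01097 to 0.1122 for Pcdh11x, -0.03969 to 0.1379 for Pcdh15, -0.06843 to 0.06216 for Pcdh17, -0.004556 to 0.1437 for Pcdh20, -0.01712 to 0.1386 for Pcdh8 and -0.07918 to 0.05611 for Pcdh9. Without a change of sign, the ranges were -0.2229 to -0.02228 for Pcdha4, -0.2507 to -0.03465 for Pcdhb14, -0.2115 to -0.003485 for Pcdh7, -0.1919 to -0.03901 for Pcdh19, -0.3285 to -0.1323 for Pcdhgc4, -0.1418 to -0.05054 for Pcdhac1 and 0.09553 to 0.206 for Pcdha5. The cause of these moves was not tested. Depth limits Pcdh12 and Pcdhb1, at 3.66 and 5.06 fragments, and shared exons limit single alpha and gamma genes at any depth.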
